A study of Zea mays with 8 samples.

Results

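The aleurone of the maize kernel was compared with the starchy endosperm it encloses, as a tissue difference shared by 2 ages. All 8 libraries of the study entered, chosen by the labelled tissue: 4 from aleurone and 4 from starchy endosperm, of 8 in all. Every library came from the inbred line B73, grown in a greenhouse, with no treatment and no mutant allele in the labels. Aleurone was taken 18 or 22 days after pollination (DAP) and has 2 libraries per age, numbered as biological replicates (bioreps) 1 and 2, and starchy endosperm was taken and numbered alike. Kernels were frozen, thawed, peeled mechanically and rinsed before RNA was taken, so each library is bulk tissue from a peel and not a sorted cell type. RNA integrity was measured in 1 biorep of each pair. Values per library below run from 18 DAP biorep 1 and 2 to 22 DAP biorep 1 and 2 within each tissue.

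Both tissues descend from the same fertilised central cell and are triploid. The aleurone is the outermost layer of the endosperm: its cells stay alive through drying, store oil, protein and phytate-bound minerals, and at germination secrete the enzymes that digest the interior. The starchy endosperm fills with starch granules and with zeins, the prolamin storage proteins of maize, and its cells die before the kernel is mature.

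Marker genes were compared with the tissue labels, and each tissue had the higher sum of its own markers. Markers of the aleurone summed to 19608, 39252, 11536 and 31758 TPM (the deposited length-corrected level, a share of its library) in aleurone, against 51.7, 58.0, 51.8 and 53.8 TPM in starchy endosperm. Markers of the starchy endosperm summed to 52811 to 83124 TPM in aleurone, against 242416 to 311840 TPM in starchy endosperm, so transcripts that mark the interior were abundant in the peels as well. Few genes carried these sums, mainly plt1 and ole1 in aleurone and z1A1_3 in starchy endosperm. In the test described below, 5 of 7 tested aleurone markers were higher in aleurone, and Nkd1 and Nkd2 were not called. Of 8 aleurone markers 1 had no count in aleurone. Of 12 starchy endosperm markers 10 were lower in aleurone. The remaining markers, az22z5 and a gene named pbf1 (GRMZM2G146267), were not called. The lists were chosen with earlier results of these data known. The sum over basal transfer layer genes was 4.92 to 15.4 TPM in aleurone, with 7 of 10 markers at 0 counts in every aleurone library, against 0 to 3.20 TPM in starchy endosperm. Floral regulators that mark maternal tissue summed to 16.2 to 71.6 TPM in aleurone and at most 0.30 TPM in starchy endosperm. Embryo markers other than glb1 summed to 2.85 to 41.2 TPM in aleurone and 0 to 1.33 TPM in starchy endosperm, and the part of any other tissue in the results was not tested. In bulk samples, fewer cells of a type and less RNA per cell cannot be told apart.

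Depth ran from 2944720 to 7001775 counts in aleurone and from 2473005 to 11529168 counts in starchy endosperm, and the biorep 2 library was the deeper one in all 4 groups. Genes with at least 1 count numbered 22786, 20663, 23154 and 20134 in aleurone, against 18172, 14186, 16720 and 9335 in starchy endosperm. All 4 aleurone libraries thus exceeded all 4 starchy endosperm libraries, by 7081 genes on average (exact two-sided permutation test, p = 0.0286, the smallest that 4 against 4 libraries allow), and the biorep 2 libraries detected fewer genes than biorep 1 despite their depth. Zein genes took 56.4 to 62.7% of counts in starchy endosperm, against 7.94 to 11.7% in aleurone. This left a smaller share of counts for other genes, and its effect on detection was not tested.

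Of 15701 genes that passed a filter on low counts, 2722 differed between the tissues at an adjusted p under 0.05 (17.3%), 1703 higher in aleurone (10.8%) and 1019 lower (6.49%). Such genes are named called below. The test was edgeR's quasi-likelihood test with age and biorep number as further terms and Benjamini-Hochberg adjustment over all 15701 genes. Adjusted p-values and standard errors (SE) measure the spread between these libraries. Of the calls, 551 of those higher had no count in any starchy endosperm library. These genes passed the filter through the aleurone alone, and 569 such genes were tested, while 1 tested gene, called lower, had no count in aleurone. The same sign was found at both ages for 2714 of the 2722 genes and in both biorep numbers for 2587. None of the remaining genes had the opposite sign. They failed the filter in a fit: 3 at 18 DAP, 5 at 22 DAP and 135 within biorep 1. In fits of each age alone, 1368 of the 2722 genes were called at neither 18 nor 22 DAP, and 606 were called at both ages.

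The number of calls depended on single libraries. It was 1455 without aleurone 18 DAP biorep 1, 1058 without aleurone 18 DAP biorep 2, 1419 without aleurone 22 DAP biorep 1 and 1467 without aleurone 22 DAP biorep 2. Among starchy endosperm libraries it was 1052 without 18 DAP biorep 1, 1435 without 18 DAP biorep 2, 1185 without 22 DAP biorep 1 and 4420 without 22 DAP biorep 2, the library with the fewest detected genes. A set of 842 genes (5.36%) was called in all 8 of these fits, 425 higher in aleurone (2.71% of tested genes) and 417 lower (2.66%), with median log2 fold changes of 6.38 and -2.37. They are referred to below as called without any 1 library.

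**Figure D1:**
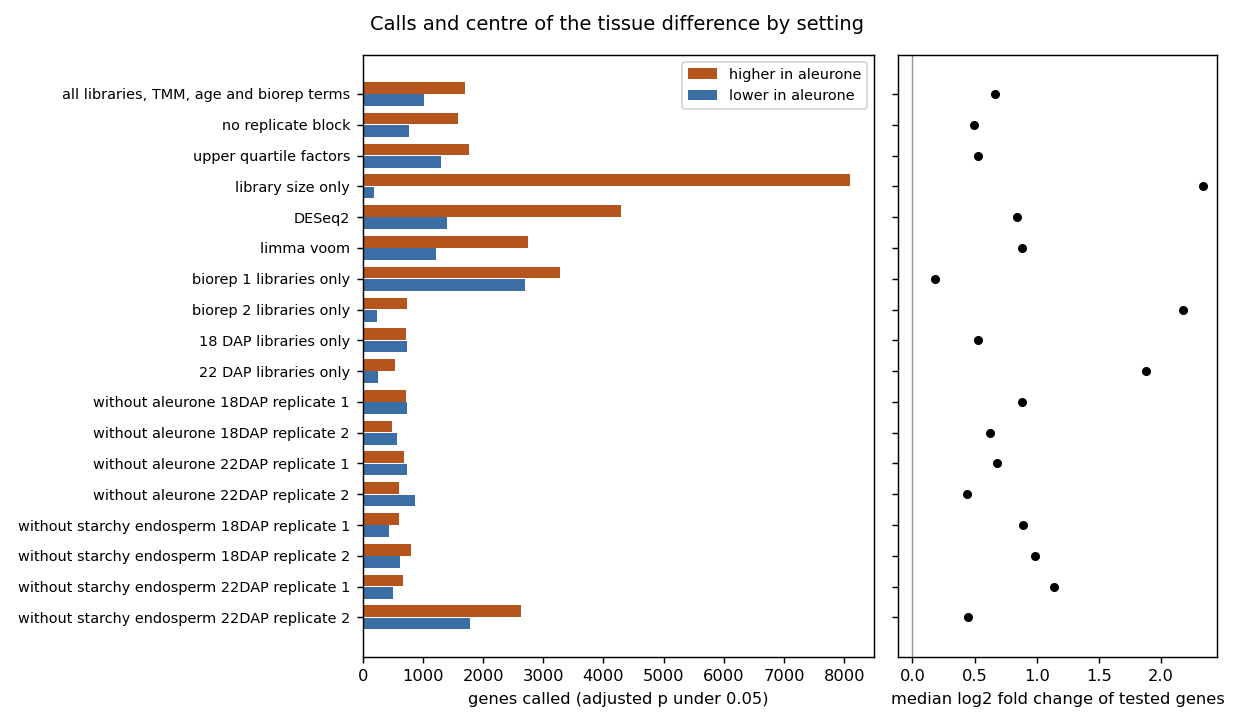
Bars count the genes called higher (orange) and lower (blue) in aleurone under each setting, and points give the median log2 fold change (aleurone over starchy endosperm) of all tested genes in the same fit. Scaling by library size alone gives 8091 higher and 195 lower genes with a median of 2.34, and leaving out starchy endosperm 22 DAP biorep 2 gives 4420 calls in all.

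The scale of the comparison mattered because a few transcripts filled the starchy endosperm libraries. The trimmed mean of M values (TMM) scaling set the median log2 fold change (aleurone over starchy endosperm) of all tested genes to 0.66. With library size only it was 2.34, a shift of 1.67, and calls turned to 8091 higher and 195 lower. TPM carries the same shift as library size, so a gene can have more TPM in aleurone and still be lower on the TMM scale. Without overlap between tissues, 69.2% of tested genes had the higher TPM in aleurone and 0.796% the lower, against 23.7% and 8.22% in TMM-scaled CPM (reads per library on the TMM scale, with no length correction). Of the 1019 genes called lower, 449 had a positive log2 fold change with library size only. Of the genes called without any 1 library, all 425 higher genes remained positive and 329 of the 417 lower genes remained negative with library size only. The upper quartile scaling gave 1761 higher and 1297 lower. Within biorep 1 the median of all genes was 0.13 and within biorep 2 it was 1.98, against 0.44 within 18 DAP and 1.67 within 22 DAP for the same genes. List medians below are to be read beside 0.66, and list counts beside the 10.8% called higher and 6.49% called lower of all tested genes.

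Zeins were the main content of the starchy endosperm libraries. The 26 zein genes with a name took 7.94, 8.97, 10.0 and 11.7% of counts in aleurone, against 56.4, 59.8, 59.2 and 62.7% in starchy endosperm. The means were 9.66 ± 1.62% in aleurone and 59.5 ± 2.59% in starchy endosperm (SD, n = 4 each; exact two-sided permutation test, p = 0.0286), and the ranges were far apart. Of the 26 zeins, 0 were higher and 23 were lower in aleurone, and all 23 were called without any 1 library. Their median log2 fold change was -4.27, or -2.62 with library size only. The alpha-zein z1A1_3 (GRMZM2G059620) had 25341, 20748, 30781 and 23793 TPM in aleurone, against 148046, 128511, 169320 and 148131 TPM in starchy endosperm (log2 fold change -4.62, SE 0.26, adjusted p = 9.16e-05). It was the most abundant named transcript of both tissues. The delta-zein dzs18 (GRMZM2G100018) and the beta-zein zp15 (GRMZM2G086294) were lower by less, at -2.54 (SE 0.16) and -2.64 (SE 0.23). The 3 zeins not called were z1C1_1, z1C1_11 and az22z5, all of the 22-kDa alpha class. Of these, az22z5 (GRMZM2G088365) averaged 1332 ± 347 TPM in aleurone, against 276 ± 184 TPM in starchy endosperm (log2 fold change 0.45, SE 0.57, adjusted p = 0.641). Zein genes are near-identical copies, so how the authors' counting split reads between single members is uncertain, while the sum over the family is less touched by it.

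Starch synthesis divided into a large group lower in aleurone and a small group higher. Of 17 tested genes 10 were lower, all of them called without any 1 library, and 3 were higher (median log2 fold change -3.06, or -1.41 with library size only). The largest difference was in bt2 (GRMZM2G068506), the small subunit of the endosperm ADP-glucose pyrophosphorylase, which makes the glucosyl donor of starch. It had 289, 139, 233 and 82.2 TPM in aleurone, against 2349, 1193, 1721 and 909 TPM in starchy endosperm (log2 fold change -5.17, SE 0.18, adjusted p = 5.82e-05). The large subunit sh2 (GRMZM2G429899) was at -4.81 (SE 0.20) and bt1 (GRMZM2G144081), which carries ADP-glucose into the amyloplast, at -4.56 (SE 0.23). The synthases and branching and debranching enzymes followed at smaller sizes: ss1 at -3.83, sugary2 at -3.82, zpu1 at -4.01, ae1 at -3.06 and du1 at -2.76. The granule-bound synthase wx1 (GRMZM2G024993) differed least, with 640, 1118, 601 and 1416 TPM in aleurone, against 753, 1979, 746 and 1769 TPM in starchy endosperm. The TPM of wx1 overlapped between the tissues, and on the TMM scale its log2 fold change was -2.46 (SE 0.19, adjusted p = 0.000361).

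The starch genes higher in aleurone were other pyrophosphorylase subunits and a debranching enzyme. AGP2 (GRMZM2G027955) had 73.3, 74.8, 43.1 and 39.5 TPM in aleurone, against 3.63, 3.28, 2.65 and 2.93 TPM in starchy endosperm (2.12, SE 0.29, adjusted p = 0.00348), and was called without any 1 library. Counts of agpsl1 (GRMZM2G163437) were 0 in all starchy endosperm libraries, a bound of at least 91.1-fold (3 counts over the group as the floor; adjusted p = 0.0158). Its adjusted p was 0.0633 and 0.0821 without aleurone 18 DAP biorep 1 or 2, and 0.0515 and 0.0518 without aleurone 22 DAP biorep 1 or 2. The third was iso3 (GRMZM2G150796), an isoamylase-type debranching enzyme (5.15, SE 1.35, adjusted p = 0.0444), whose call held without starchy endosperm 22 DAP biorep 2 and was lost without each of the other 7 libraries, at adjusted p-values of 0.0598 to 0.124.

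Among 8 tested regulators of endosperm filling, 0 were higher and 3 were lower in aleurone (median -0.51, or 1.14 with library size only). The bZIP factor o2 (GRMZM2G015534), an activator of zein genes, had 77.1, 90.4, 66.6 and 107 TPM in aleurone, against 149, 255, 69.98 and 115 TPM in starchy endosperm, which overlap. In TMM-scaled CPM the same libraries had 50.1, 73.9, 45.6 and 96.9 in aleurone, against 474, 837, 244 and 309 in starchy endosperm, with no overlap (log2 fold change -2.71, SE 0.32, adjusted p = 0.00209). The other 2 were its partner in zein activation, the DOF factor pbf1 (GRMZM2G146283; -2.22, SE 0.35, adjusted p = 0.00707), and Opaque11 (GRMZM2G147685; -1.76, SE 0.37, adjusted p = 0.0212), a bHLH factor. Another tested gene ID with the name pbf1 (GRMZM2G146267) was not called. The adjusted p of Opaque11 was 0.0764 without aleurone 18 DAP biorep 2, and in starchy endosperm 0.0773 without 18 DAP biorep 1, 0.0760 without 18 DAP biorep 2 and 0.0975 without 22 DAP biorep 1.

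Of 30 genes grouped under protein folding in the endoplasmic reticulum, 4 were higher and 9 were lower in aleurone, with a median of -0.38 (1.26 with library size only). The most different of the 9 do not fold proteins. They were fl3 (GRMZM2G006585), a PLATZ-family protein, at -4.68 (SE 0.20), FL2, itself a zein, at -4.50 (SE 0.23), and FL1 (GRMZM2G094532), a membrane protein of the zein protein body, at -3.65 (SE 0.26). The disulfide isomerases lay on both sides. A pair of genes named PDIL5-1 were at -2.50 (GRMZM2G443655; SE 0.18) and -2.34 (GRMZM2G073628; SE 0.21), and pdi (GRMZM2G091481) was at -1.54 (SE 0.17). By contrast pdi2 (GRMZM2G163421) had 104, 95.2, 109 and 86.7 TPM in aleurone, against 3.37, 5.26, 2.64 and 2.38 TPM in starchy endosperm (2.84, SE 0.32, adjusted p = 0.00165). The calreticulin crt2 (GRMZM2G358059), a lectin chaperone, was higher as well (1.58, SE 0.24, adjusted p = 0.00564).

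**Figure D2:**
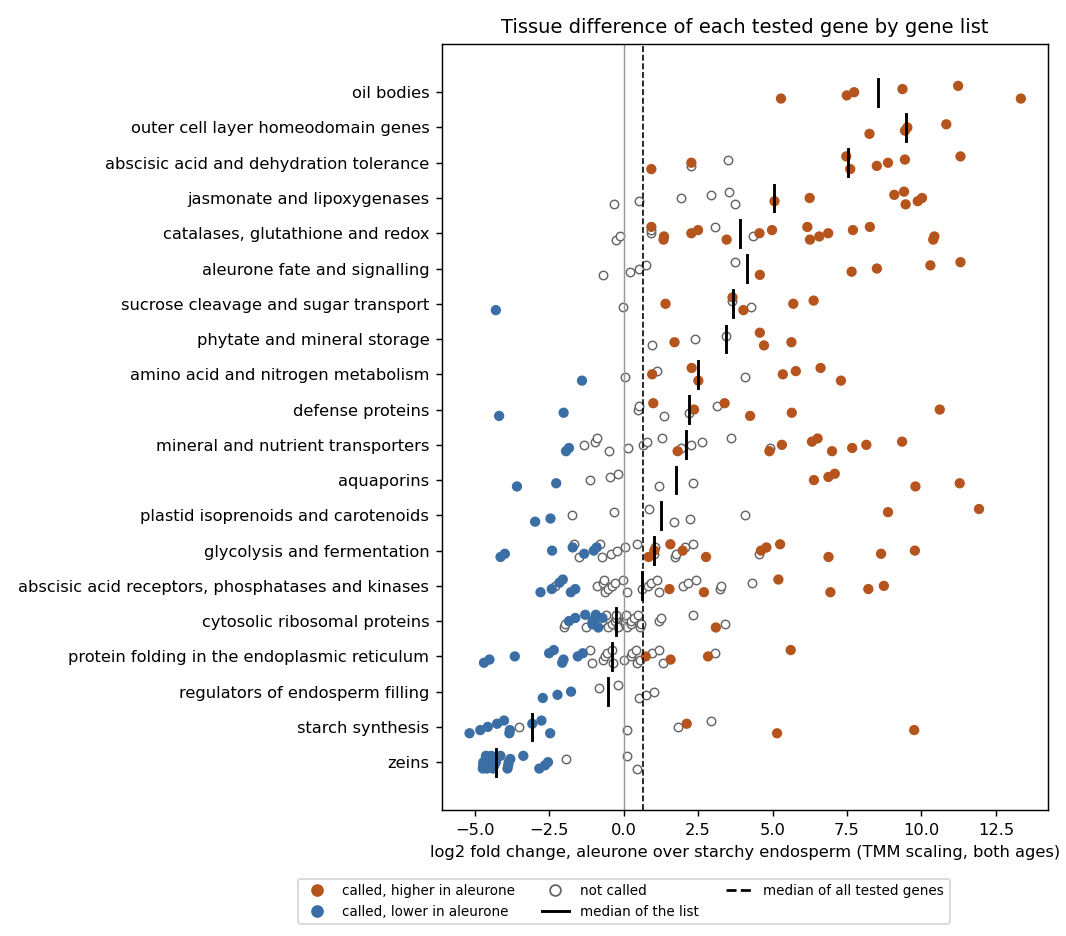
Each point is a tested gene of the list named on the left, placed by its log2 fold change (aleurone over starchy endosperm, TMM scaling), filled where called. All 26 zeins and the 10 starch genes called lower lie left of the dashed line at 0.66, the median of all tested genes, and all 6 oil body genes lie right of it. Genes with no starchy endosperm count are drawn at fitted values that depend on a prior count.

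Oil storage lay on the other side. The 6 oil body genes, which encode oleosins and oil body associated proteins (OBAP) that coat the oil droplets, summed to 5842, 14177, 5168 and 17496 TPM in aleurone, against 9.31, 22.3, 10.1 and 14.6 TPM in starchy endosperm (exact two-sided permutation test, p = 0.0286). All 4 aleurone sums were above all starchy endosperm sums, and within aleurone the biorep 2 sums exceeded those of biorep 1 at both ages. All 6 genes were higher in aleurone, 5 of them without any 1 library (median log2 fold change 8.55, or 7.68 with the 2 genes absent from starchy endosperm at their bounds). The oleosin ole1 (GRMZM2G337229) had 2859, 6368, 2769 and 9497 TPM in aleurone, against 3.92, 8.59, 4.48 and 6.13 TPM in starchy endosperm (7.74, SE 0.41, adjusted p = 8.48e-05). An oleosin with no number in its name (GRMZM2G333069) had 493, 818, 441 and 700 TPM in aleurone and 0 counts in starchy endosperm, which puts it at least 931-fold higher (adjusted p = 0.000478). OBAP2B (GRMZM2G107570) had a bound of at least 198-fold, with an adjusted p of 0.00733, or 0.0690 without aleurone 18 DAP biorep 2.

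Genes that make the oil were called in part. Of 6 tested genes of oil synthesis, 2 were higher, both without any 1 library, and 0 were lower (median 1.48). ACC1 (GRMZM5G858094), an acetyl-CoA carboxylase at the entry to fatty acid synthesis, had 209, 107, 127 and 52.9 TPM in aleurone, against 5.65, 3.59, 4.68 and 3.56 TPM in starchy endosperm (2.64, SE 0.18, adjusted p = 0.000198). The desaturase fad7 (GRMZM2G128971) had 2648 counts over the aleurone and 3 over the starchy endosperm libraries (TMM-scaled ratio 372, exact 95% interval 127 to 1804 for counting error only). DGAT1-2 (GRMZM2G169089), the acyltransferase of the last step, averaged 73.1 TPM in aleurone, against 2.60 TPM in starchy endosperm and was not called (3.62, SE 1.37, adjusted p = 0.123).

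Genes of the response to abscisic acid (ABA), the hormone of seed maturation, and of protection against drying were higher in aleurone. Of 10 tested genes 8 were higher, 5 of them without any 1 library, and 0 were lower (median 7.54, or 5.53 with bounds). The bounds apply to 3 genes with no count in starchy endosperm, which could only be called higher. The B3 factor vp1 (GRMZM2G133398), which activates maturation genes under ABA, had 34.1, 47.7, 23.5 and 61.9 TPM in aleurone and 0 counts in starchy endosperm (at least 222-fold, adjusted p = 0.00558). The globulin glb1 (GRMZM2G067919), also counted as an embryo marker, had 470, 1747, 236 and 1268 TPM in aleurone, against 0.47, 0.87, 0.53 and 2.75 TPM in starchy endosperm (7.47, SE 0.40, adjusted p = 8.48e-05). The dehydrin dhn1 and the late embryogenesis gene mlg3 had 3 and 1 counts in all of the starchy endosperm, with ratios of 246 (84.2 to 1196) and 737 (132 to 29143). The sums of the remaining embryo markers stood at 2.85 to 41.2 TPM in the same aleurone libraries.

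**Figure D3:**
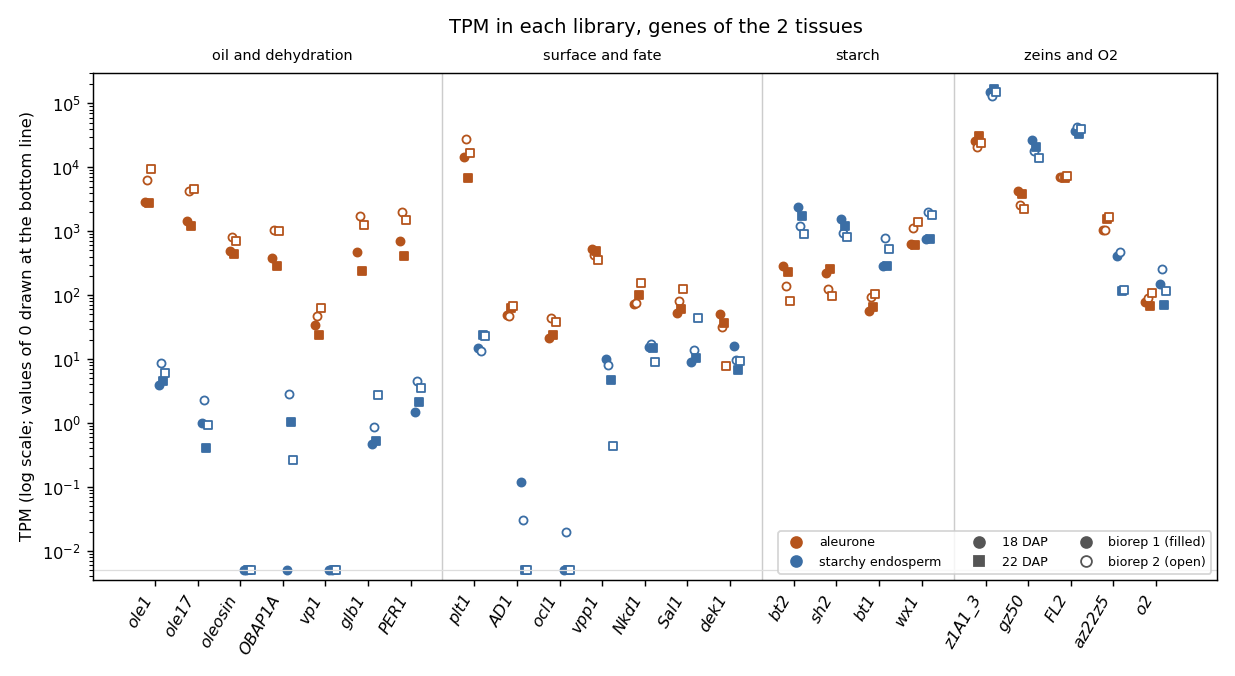
TPM on a log axis of 23 genes in the 8 libraries, aleurone left (orange) and starchy endosperm right (blue) for each gene, with shape for age and fill for biorep. Oil, dehydration and surface genes such as ole1 and plt1 stand far above the starchy endosperm libraries in all 4 aleurone libraries, starch genes such as bt2 stand below, and o2 and wx1 overlap in TPM.

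Genes that act at the surface of the endosperm were called higher in aleurone. Of 10 tested genes of aleurone fate and signalling, 5 were higher in aleurone and 0 lower (median 4.15). The lipid transfer gene plt1 (GRMZM2G101958) had 14636, 28034, 6875 and 16977 TPM in aleurone, against 15.1, 13.2, 23.4 and 23.0 TPM in starchy endosperm (7.66, SE 0.60, adjusted p = 0.000361). The vacuolar proton pump vpp1 (GRMZM2G069095) had 522, 426, 497 and 358 TPM in aleurone, against 10.2, 8.12, 4.66 and 0.44 TPM in starchy endosperm (4.57, SE 0.75, adjusted p = 0.00814). AD1 (GRMZM2G167438), which encodes an enzyme of cuticular wax elongation, had a ratio of 449 (124 to 3706) with 2 counts in starchy endosperm. All 4 tested genes of the outer cell layer homeodomain (OCL) family, named for their activity in epidermal layers, were higher in aleurone. OCL8 (HDZIV8_OCL8, GRMZM2G122897) had 34.0, 42.7, 27.5 and 47.8 TPM in aleurone and 1 count in starchy endosperm (ratio 838, 150 to 33102), and ocl1 was alike at 827 (148 to 32687).

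Of the fate regulators dek1, cr4, Sal1, Nkd1 and Nkd2, none was called. Nkd1 (GRMZM2G129261), an INDETERMINATE-domain factor needed for a single aleurone layer, had 73.7, 74.9, 101 and 156 TPM in aleurone, against 15.4, 17.2, 14.9 and 9.13 TPM in starchy endosperm. The TPM did not overlap, and on the TMM scale the log2 fold change was 0.75 (SE 0.42, adjusted p = 0.287), close to the median of all genes. Nkd2 (0.50, SE 0.31) and Sal1 (0.23, SE 0.27), which limits the number of aleurone layers, were similar. The calpain gene dek1 (GRMZM2G321753), without which no aleurone forms, was at -0.69 (SE 0.41, adjusted p = 0.309), which turned to 0.95 with library size only. The receptor kinase gene cr4 (GRMZM2G051637) had 11.7, 9.02, 8.30 and 4.26 TPM in aleurone, against 0.67, 0.23, 0.09 and 0 TPM in starchy endosperm (3.73, SE 1.12, adjusted p = 0.0612).

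For several enzymes of primary metabolism, most transcripts came from different gene copies in the 2 tissues. The share of a copy in the summed TPM of its family does not depend on the scaling between libraries. Of the 3 sucrose synthases, which split sucrose on its arrival in the kernel, sh1 (GRMZM2G089713) held 15.3, 17.4, 17.6 and 18.0% of the family's TPM in aleurone, against 98.0, 98.3, 98.8 and 99.5% in starchy endosperm. The family sum does depend on that scaling, and in TPM it was 1955 ± 177 in aleurone, against 1644 ± 529 in starchy endosperm (SD, n = 4 each). TPM carries the shift toward aleurone seen with library size (1.67 in the median log2 fold change). Near-equal TPM sums thus do not mean equal sums on the TMM scale. By gene, sus1 (GRMZM2G152908) had 792, 1005, 807 and 1159 TPM in aleurone, against 1.66, 2.07, 2.66 and 5.68 TPM in starchy endosperm (6.38, SE 0.27, adjusted p = 6.26e-05), and sh1 was at -4.29 (SE 0.27, adjusted p = 0.000144). For sus2 (GRMZM2G318780) the log2 fold change was 3.66 (SE 0.86, adjusted p = 0.0323). Its adjusted p was 0.0709 without aleurone 18 DAP biorep 2, and 0.0936, 0.0584 and 0.112 without starchy endosperm 18 DAP biorep 1, 18 DAP biorep 2 and 22 DAP biorep 1.

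Cytosolic glyceraldehyde-3-phosphate dehydrogenase (GAPDH), a step of glycolysis, was divided in the same manner. In aleurone GPC1 and gpc2 held 40.1 ± 3.47% and 49.7 ± 1.53% of the family's TPM, against 3.40 ± 0.714% and 7.45 ± 2.79% in starchy endosperm (SD, n = 4 each). In turn gpc3 and gpc4 held 4.99 ± 2.79% and 5.17 ± 1.94% in aleurone, against 44.7 ± 6.29% and 44.4 ± 4.998% in starchy endosperm. The log2 fold changes were 2.77 (SE 0.30) for GPC1 (GRMZM2G046804), 1.98 (SE 0.15) for gpc2 (GRMZM2G180625), -4.13 (SE 0.29) for gpc3 (GRMZM2G071630) and -3.99 (SE 0.27) for gpc4 (GRMZM2G176307), all called without any 1 library. Copies within these families are alike in sequence, which makes the division of reads between them uncertain.

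Smaller divisions were found in fermentation and amino acid synthesis, in families picked after their values were seen. The pyruvate decarboxylase pdc3 held 84.4, 81.4, 89.9 and 86.4% of the sum with pdc2 in aleurone, against 14.0, 21.6, 29.2 and 56.7% in starchy endosperm. Of the acetohydroxyacid synthases of branched-chain amino acid synthesis, AHAS109 held 25.1 ± 3.87% in aleurone and 2.58 ± 0.808% in starchy endosperm (SD, n = 4 each). AHAS109 was higher in aleurone (2.28, SE 0.34, adjusted p = 0.00507). AHAS108 was lower on the TMM scale (-1.40, SE 0.17, adjusted p = 0.0026) and not with library size only (0.26). Alcohol dehydrogenase came mainly from adh1 in both tissues, at 95.7 ± 1.95% in aleurone and 100% in starchy endosperm, where adh2 had no count. Over the 33 tested genes of glycolysis and fermentation, 11 were higher and 7 lower (median 1.01).

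**Figure D4:**
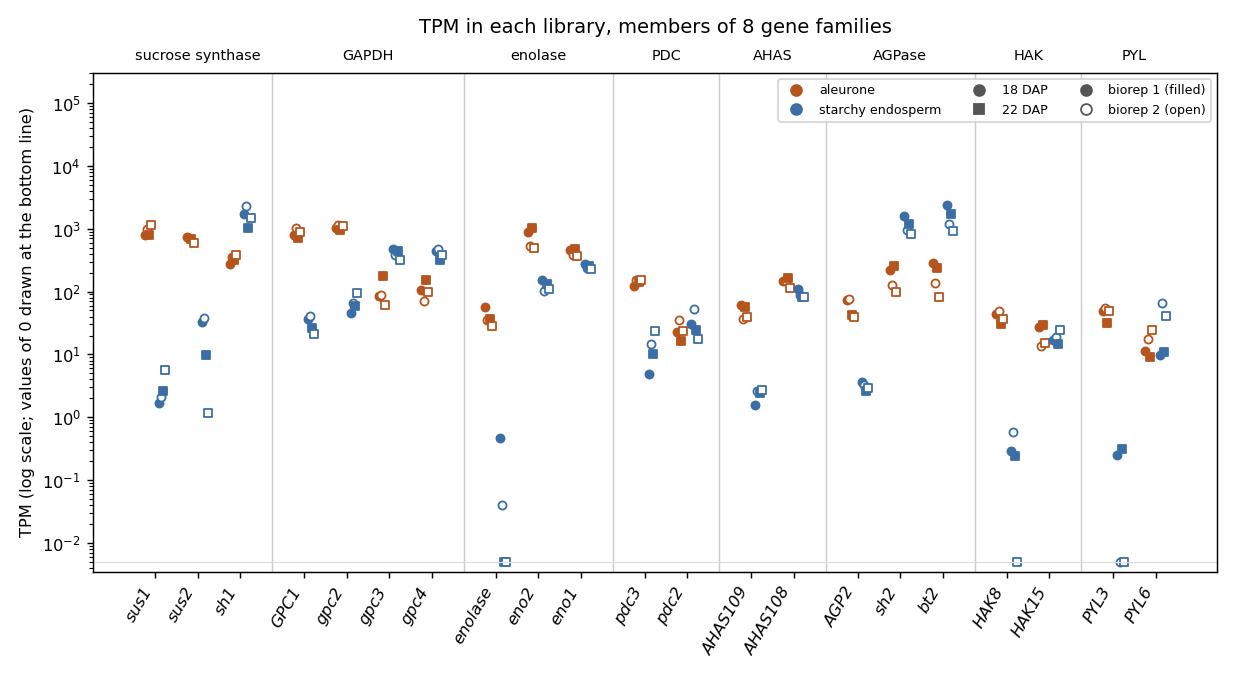
TPM on a log axis of members of 8 gene families in the 8 libraries, aleurone left (orange) and starchy endosperm right (blue) for each gene. For sucrose synthase and GAPDH the copy that is highest in aleurone (sus1, gpc2) is far lower in starchy endosperm, and the copies highest in starchy endosperm (sh1, gpc3, gpc4) are lower in aleurone.

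Pyruvate phosphate dikinase, which links pyruvate to gluconeogenesis and amino acid synthesis, was the most abundant enzyme of this group in aleurone. PPDK2 (GRMZM2G097457) had 5684, 5411, 5048 and 4614 TPM in aleurone, against 1257, 1428, 1120 and 1144 TPM in starchy endosperm, and was not called (0.06, SE 0.17, adjusted p = 0.834). Ppdk1 (GRMZM2G306345) was called at 0.96 (SE 0.18, adjusted p = 0.0130), close to the median of all genes. Its adjusted p was 0.0531 without aleurone 18 DAP biorep 2, and 0.0644 and 0.0516 without starchy endosperm 18 DAP biorep 1 or 2.

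Genes of nitrogen assimilation and amino acid breakdown were mostly higher in aleurone. Of 11 tested genes of amino acid and nitrogen metabolism, 7 were higher and 1 (AHAS108) was lower (median 2.51). The asparagine synthetase asn2 (GRMZM2G093175) had 168, 192, 112 and 191 TPM in aleurone, against 0.12, 0, 0.16 and 1.12 TPM in starchy endosperm (7.30, SE 0.89, adjusted p = 0.00236). The glutamine synthetases gln4 (5.78, SE 0.95) and gln5 (6.61, SE 1.08) were higher too. Lysine breakdown through lkrsdh1 (GRMZM2G181362) was at 824, 605, 358 and 238 TPM in aleurone, against 59.2, 38.6, 16.0 and 12.3 TPM in starchy endosperm (2.51, SE 0.31, adjusted p = 0.00258), and in both tissues the 22 DAP libraries were below those of 18 DAP.

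Protection against oxidation showed a one-sided pattern. Of 22 tested genes of catalases, glutathione and redox, 16 were higher, 5 of them without any 1 library, and 0 were lower (median 3.90). Among the 22 tested genes, 3 had no count in starchy endosperm and could only be called higher. The peroxiredoxin PER1 (GRMZM2G129761), known from dormant seeds, had 700, 1969, 408 and 1495 TPM in aleurone, against 1.46, 4.46, 2.12 and 3.53 TPM in starchy endosperm (6.57, SE 0.34, adjusted p = 8.48e-05). The glutathione S-transferase gst1 (GRMZM2G116273) had 939, 1164, 849 and 1141 TPM in aleurone, against 20.8, 34.2, 13.2 and 25.7 TPM in starchy endosperm (3.46, SE 0.19, adjusted p = 8.48e-05). Superoxide dismutase sod3 (GRMZM2G059991) was at 1.36 (SE 0.17, adjusted p = 0.00251). Of the catalases, cat2 had no count in starchy endosperm (at least 125-fold, adjusted p = 0.0142; 0.0863 without aleurone 18 DAP biorep 2 and 0.0740 without aleurone 22 DAP biorep 2). The call of cat1 at 0.93 (SE 0.18, adjusted p = 0.0160) was lost without aleurone 18 DAP biorep 2 (0.0754), aleurone 22 DAP biorep 1 (0.0719) or starchy endosperm 18 DAP biorep 1 (0.0743).

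Calls among mineral storage and transport genes were mainly higher in aleurone. Of 7 tested genes of phytate and mineral storage 4 were higher, 2 of them without any 1 library, and 0 lower (median 3.45). The inositol phosphate synthase gene INO1 (GRMZM2G155242), which opens phytate synthesis, had 201, 229, 230 and 403 TPM in aleurone, against 1.98, 1.96, 2.17 and 0.06 TPM in starchy endosperm (5.63, SE 0.83, adjusted p = 0.00514). Of 24 tested mineral and nutrient transporters 9 were higher and 2 lower (median 2.09), and the share called lower is near the 6.49% of all tested genes. Only 2 of the 9 higher transporters were called without any 1 library, as were the 2 lower ones. Among the tested transporters 3 had no count in starchy endosperm and could only be called higher. The potassium transporter HAK8 (GRMZM2G173387) had 44.7, 49.0, 30.3 and 36.9 TPM in aleurone, against 0.29, 0.58, 0.24 and 0 TPM in starchy endosperm (5.31, SE 0.87, adjusted p = 0.00791). HAK15 (GRMZM2G121063) lay the other way, at -1.93 (SE 0.27, adjusted p = 0.00376), with 27.4, 13.8, 29.2 and 15.3 TPM in aleurone, against 17.1, 19.1, 14.8 and 24.6 TPM in starchy endosperm, which overlap.

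Water channels were called in both directions. Of 12 tested aquaporins 5 were higher, none of them without any 1 library, and 2 lower, 1 of them without any 1 library (median 1.76). PIP2-1 (GRMZM2G014914), a plasma membrane channel, was lower in aleurone at -3.58 (SE 0.17, adjusted p = 7.11e-05), with 22.5, 106, 30.6 and 119 TMM-scaled CPM in aleurone, against 226, 1274, 374 and 1619 in starchy endosperm. In both tissues its biorep 2 libraries were above those of biorep 1, and its difference was -3.58 within biorep 1 and -3.64 within biorep 2. The vacuolar channel TIP4-4 (GRMZM2G093090) had 30.9, 75.0, 34.3 and 220 TPM in aleurone and 0 counts in starchy endosperm (at least 252-fold, adjusted p = 0.00730, or 0.0664 without aleurone 22 DAP biorep 2).

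Genes of ABA perception were called in both directions. Of 33 tested ABA receptors, phosphatases and kinases, 6 were higher, none of them without any 1 library, and 6 were lower, 3 of them without any 1 library (median 0.63). The receptor PYL6 (GRMZM2G141382) had 4.29, 10.5, 4.33 and 15.9 TMM-scaled CPM in aleurone, against 21.5, 152, 25.9 and 76.2 in starchy endosperm (-2.79, SE 0.38, adjusted p = 0.00360). The receptor PYL3 (GRMZM2G154987) had 48.6, 54.2, 32.0 and 48.3 TPM in aleurone, against 0.25, 0, 0.31 and 0 TPM in starchy endosperm (2 counts, ratio 186, 51.4 to 1541; adjusted p = 0.0137, or 0.0533 without aleurone 18 DAP biorep 2).

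Jasmonate and auxin genes had calls in the aleurone direction alone. This was partly set by the filter on low counts. No starchy endosperm count was found for 5 of 13 tested jasmonate genes and 3 of 32 tested auxin genes, which could only be called higher. Of 13 tested jasmonate and lipoxygenase genes 7 were higher and 0 lower (median 5.07), and none of the 7 was called without any 1 library. The allene oxide cyclase aoc1 (GRMZM2G077316) had 165, 357, 141 and 402 TPM in aleurone, against 0.63, 0.08, 1.24 and 18.0 TPM in starchy endosperm (5.07, SE 1.06, adjusted p = 0.0207). Its adjusted p was 0.0542 without aleurone 18 DAP biorep 2, and 0.0955 and 0.0747 without starchy endosperm 18 DAP biorep 1 and 22 DAP biorep 1. Of 32 tested auxin genes 9 were higher and 0 lower (median 1.59), 1 of them without any 1 library. This was abp1 (GRMZM2G116204), an auxin-binding protein, with 480, 291, 417 and 304 TPM in aleurone, against 45.0, 39.1, 40.1 and 29.9 TPM in starchy endosperm (1.23, SE 0.19, adjusted p = 0.00569).

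Of 10 tested genes of plastid isoprenoids and carotenoids, 2 were higher, 2 lower and 6 not called (median 1.27). The gene dxs2 (GRMZM2G493395), for the first step of the plastid isoprenoid pathway, had 29.5, 61.7, 24.4 and 68.0 TPM in aleurone and 0 counts in starchy endosperm (at least 348-fold, adjusted p = 0.00236). The other higher gene was vp14 (GRMZM2G014392), which cleaves carotenoids toward ABA, with 0 counts in starchy endosperm and a bound of at least 63.0-fold (adjusted p = 0.0408). Its call held without starchy endosperm 22 DAP biorep 2. Without aleurone 18 DAP biorep 2 or aleurone 22 DAP biorep 2 it did not pass the filter, and without each of the other 5 libraries its adjusted p was 0.0652 to 0.129. The beta-carotene hydroxylase crtRB1 (GRMZM2G152135) had 11.7, 14.4, 11.98 and 25.3 TMM-scaled CPM in aleurone, against 57.8, 141, 66.2 and 84.1 in starchy endosperm (-2.45, SE 0.31, adjusted p = 0.0026). PSY1 (GRMZM2G300348), the phytoene synthase of yellow endosperm, was at -2.97 (SE 0.59, adjusted p = 0.0171), with 0.0558 and 0.0788 without aleurone 18 DAP biorep 1 or 2 and 0.0932 without starchy endosperm 18 DAP biorep 1.

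The lists of ribosomal proteins, of autophagy, and of chromatin and imprinted genes had medians below that of all genes. The sign of the ribosomal and chromatin medians depended on the scaling. Of 37 tested cytosolic ribosomal proteins 1 was higher and 9 were lower, 2 of the 9 without any 1 library. Their median of -0.27 turned to 1.39 with library size only. The higher gene was rpp2b (GRMZM2G114954), an acidic stalk protein, with 340, 213, 311 and 136 TPM in aleurone, against 14.8, 2.50, 6.02 and 8.69 TPM in starchy endosperm (3.10, SE 0.48, adjusted p = 0.00624). Of 14 autophagy genes 0 were higher and 3 were lower, 1 of them without any 1 library (median 0.34, or 1.99 with library size only). Atg8e (GRMZM2G014975), which coats autophagosomes, was at -2.54 (SE 0.31, adjusted p = 0.00230) and remained negative with library size only. Of 12 chromatin and imprinted genes 1 was higher and 3 were lower (median -0.27, or 1.43 with library size only). Of these, 0 higher and 2 lower genes were called without any 1 library. NRP1 (GRMZM2G062650), imprinted in maize endosperm, had 39.8, 47.5, 89.3 and 69.3 TPM in aleurone, against 92.4, 105, 101 and 117 TPM in starchy endosperm, without overlap (-2.87, SE 0.25, adjusted p = 0.000549). The polycomb gene mez1 (GRMZM2G157820), also imprinted there, was at -1.62 (SE 0.18, adjusted p = 0.00169) and at 0.02 with library size only.

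Outside the lists, several named genes with large differences had no count in starchy endosperm. YAB5 (GRMZM2G116646), of the YABBY transcription factor family, had 74.4, 57.5, 130 and 80.1 TPM in aleurone and 0 counts in starchy endosperm (at least 200-fold, adjusted p = 0.00497). GH3 (GRMZM2G378106), of a family that conjugates hormones to amino acids, had a bound of at least 150-fold (adjusted p = 0.0135; 0.107 without aleurone 18 DAP biorep 2 and 0.0525 without aleurone 22 DAP biorep 2). On the other side Bk2L6 (GRMZM2G167520), of a family linked to cell wall formation, had 5.82, 8.51, 7.53 and 7.41 TPM in aleurone, against 42.2, 114, 35.0 and 53.7 TPM in starchy endosperm (-5.001, SE 0.27, adjusted p = 8.48e-05). The most abundant gene of aleurone next to z1A1_3 had no name in the reference used. GRMZM5G892124 had 13824, 11254, 34126 and 34477 TPM in aleurone, against 1415, 1139, 1921 and 0 TPM in starchy endosperm, and was not called (log2 fold change 0.29 within biorep 1 and 4.76 within biorep 2, adjusted p = 0.470 pooled).

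Whether 1 shared tissue difference describes both ages was asked with the tissue by age term. The edgeR quasi-likelihood test called 0 of 15701 genes (0%), and 485 genes (3.09%) had an unadjusted p under 0.05. DESeq2 called 8. Without starchy endosperm 22 DAP biorep 1 the edgeR count was 2890, and without each of the other 7 libraries it was 0. The corresponding term for biorep number called 0 genes (0%), with 1774 at an unadjusted p under 0.05. It called 5518 without starchy endosperm 18 DAP biorep 2 and 858 without starchy endosperm 22 DAP biorep 2, and 0 without each of the other 6. Of the 107 called genes among those chosen by the naming rule, all 107 had the same sign at both ages and in both biorep numbers. They were called in the pooled fit of the same libraries, so this agreement is not a separate test of a shared difference. The zein az22z5 had the opposite signs by age, at -0.87 at 18 DAP and 1.82 at 22 DAP, a difference that did not pass adjustment (unadjusted p = 0.000230).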

How the data were processed

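RNA-seq of 8 libraries measured 39475 gene IDs. Per the submitters' processing notes, reads were handled with FastQC, SAMtools, Bowtie2 2.2.3 and RSEM 1.2.15 on B73 RefGen_v3; no source used here names the annotation or strand setting. The authors deposited, per the file headers, 1 gene table per library with RSEM expected counts (estimated reads, unscaled) and TPM. TPM was used as deposited, for levels.

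Expected counts were rounded and tested with edgeR 4.0.16 in R 4.3.3 (filterByExpr by tissue, TMM, quasi-likelihood F test). The model had tissue, age and biorep number as additive terms, and calls were made at an adjusted p (Benjamini-Hochberg) under 0.05. limma 3.58.1 and DESeq2 1.42.0 were alternatives. Log2 fold changes are aleurone over starchy endosperm, with SE from the F statistic. A gene without counts in a tissue has a lower bound on its fold against 3 counts over that tissue; with 1 to 3 counts, a TMM-scaled ratio with its exact (Clopper-Pearson) 95% interval is given. Reads are not independent molecules, so these cover counting error only. On simulated data the fit recovered 16 and 41 of 50 genes at log2 fold changes of -5 and 5, and 6 and 20 of 50 at -3 and 3, with 3 false calls among 14412 unchanged genes. The simulation had no age or biorep effect, and all other genes kept the same mean in both tissues. It lacked the broad difference in composition of the real libraries, so it does not give the error rate of the calls above.

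The labels speak of replicate plants and do not say whether a biorep number marks the same plant in each group. Differences between bioreps correlated in all 6 pairs of groups (r from 0.184 to 0.453 over 15701 genes). The numbers were treated as pairs. In every group the deeper library had the same biorep number. Whether depth gave this correlation was not tested, so the correlation does not show that the numbers mark the same plants.

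Names came from a reference table of Zm-B73-REFERENCE-NAM-5.0, which matched 18908 IDs (47.9%) and gave 2662 a name; no coordinates or sequences were taken from it. Gene lists and members were chosen with earlier results of these data known, and lists were completed from the reference names. Named genes followed a rule: the 12 largest called differences in each direction among named genes without overlap in TPM and with at least 20 TPM, up to 3 called members of each list with at least 5 TPM, complete small families, and the 5 genes of highest TPM in each tissue. This gave 114 genes, of which 1 is not reported here. Other genes named were chosen after their values were seen. Alternatives changed the block, scaling, filter, tool, ages, bioreps and single libraries. The transcript tables and the table of mean TPM were not used here.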

Additional observations from a re-analysis of the deposited data

Results flagged for a closer look

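Within the 4 libraries of a tissue, a library was set aside for a closer look where its gap to the nearest other library, divided by the range of the 4, passed Dixon's 95% critical value. Chance gives this in about 1 in 20 groups, and 114 genes in each tissue were examined. Several gaps are of genes near 0 in starchy endosperm, where 1 library stood above the others: mlg3 at 0.08 TPM, expB3 at 0.06, ocl1 at 0.02 and HDZIV6_OCL6 at 0.03 in 18 DAP biorep 2, dhn1 at 0.34 and PIN5c at 0.21 in 18 DAP biorep 1, and HDZIV8_OCL8 at 0.04 in 22 DAP biorep 2.

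Starchy endosperm 22 DAP biorep 2, the library with the fewest detected genes, stood apart upward for Sal1 at 43.89 TPM, aoc1 at 18.03 TPM and asn2 at 1.12 TPM. It stood apart downward for the heat shock factor Hsf01 at 3.26 TPM and INO1 at 0.06 TPM. In aleurone, 22 DAP biorep 2 was apart for INO1 at 403.2 TPM and for cat1, the lowest of the 4, at 149.73 TPM. Aleurone 22 DAP biorep 1 was apart for rps27 at 659.82 TPM.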

How the results depend on the processing

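Calls of the tissue difference (2722; 1703 higher and 1019 lower in aleurone) were 8286 (8091 and 195) with library size only, 5691 (4287 and 1404) with DESeq2, 13607 (13373 and 234) with limma on log2(TPM + 1), 3960 (2741 and 1219) with limma voom, and 1921 (1046 and 875) with 4 group means and the replicate block. Adjusted p under 0.01 left 936 (458 and 478). The fit with no replicate block gave 2360 calls, 2260 of them shared. Upper quartile factors gave 3058, zeins taken out before scaling 2360, no filter on low counts 2217 and at least 10 counts in 4 libraries 2635. By age, 18 DAP alone gave 1452 (723 and 729) and 22 DAP alone 792 (544 and 248). By biorep number, biorep 1 alone gave 5973 (3283 and 2690) and biorep 2 alone 973 (733 and 240). With 1 library left out, totals ranged from 1052 to 4420, higher calls from 493 to 2631 and lower calls from 442 to 1789. The term for age gave 0 to 2890 and 8 with DESeq2, which left 305 genes without an adjusted p; the term for biorep number, whose leave-one-out fits were added after the data were seen, gave 0 to 5518.

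The zein share differed by -50.9 to -48.8 percentage points with 1 library left out, oil body TPM by 8381 to 12491, and detected genes by 5325 to 8271. These 3 against 4 designs cannot reach p under 0.05.

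Over 2476 values of named genes under alternatives, 2240 kept their sign and their side of the threshold (called or not called), 193 lost the call and 15 gained it. Signs turned 28 times. With library size only, AHAS108 was at 0.26, ATG3 0.22, Atg8d 0.37, mez1 0.022, hon101 0.57, rps27 0.041 and dek1 0.95. With limma on TPM, PP2C was at 0.30, AHAS108 0.65, ATG3 0.62, Atg8d 0.66, mez1 0.19, hon101 0.96, rps27 0.43, rip1 0.043, hsp70-4 0.26, HAK15 0.12, NRH3 0.19, Opaque11 0.30 and dek1 1.31. PPDK2 was at -0.091 with upper quartile factors, -0.058 at 18 DAP, -0.23 in biorep 1 and -0.15 to 0.16 with 1 library left out; Sal1 was at -0.0073 without aleurone 18 DAP biorep 1. The cause of these changes was not tested. Depth limits genes near 0: effective library sizes (total counts times the TMM factor) were 5831270 to 10482600 in aleurone, against 1314970 to 6084190 in starchy endosperm.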

Other observations

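Genes of defense, the cell wall and the cytoskeleton are given by their values, to be read beside the 10.8% called higher and 6.49% called lower of all tested genes. Of 13 tested defense proteins 6 were higher in aleurone and 2 lower (median log2 fold change 2.21), 3 of the 6 and 1 of the 2 without any 1 library. The antifungal zeamatin-like gene Zlp (GRMZM2G374971) had 206, 590, 195 and 959 TPM in aleurone and 3 counts in all of the starchy endosperm (TMM-scaled ratio 1723, 590 to 8357 for counting error only). The proteinase inhibitor MPI (GRMZM2G028393) had 4704, 6750, 2331 and 4186 TPM in aleurone, against 432, 923, 265 and 624 TPM in starchy endosperm (1.00, SE 0.14, adjusted p = 0.00390 by edgeR). The ribosome-inactivating protein gene rip1 was lower in aleurone (-2.01, SE 0.26, adjusted p = 0.00315 by edgeR), and this sign did not hold with limma on log2(TPM + 1). Of 29 cell division and cytoskeleton genes 5 were higher and 2 lower (median 1.89), and the share called lower is near that of all genes. Of these calls, 1 of the 5 and 0 of the 2 were made without any 1 library. The alpha-tubulin tua4 (GRMZM2G152466) had 531, 1090, 355 and 820 TPM in aleurone, against 11.5, 24.98, 12.1 and 19.4 TPM in starchy endosperm (3.22, SE 0.24, adjusted p = 0.000279 by edgeR), while the alpha-tubulin TUA2 was at -0.69 (SE 0.19, adjusted p = 0.0469 by edgeR), or 0.97 with library size only. The TUA2 call held without aleurone 22 DAP biorep 2 and without starchy endosperm 22 DAP biorep 2, and its adjusted p was 0.0572 to 0.164 without each of the other 6 libraries. Of 17 cell wall genes 5 were higher, 1 of them without any 1 library, and 0 lower (median 1.97). The expansin expB3 was at a ratio of 621 (111 to 24552).

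Among 96 tested members of transcription factor families 16 were higher and 2 lower (median 0.81). Only 2 of the 16 higher genes were called without any 1 library, as were the 2 lower ones. No starchy endosperm count was found for 7 of the 96, which could only be called higher. The bZIP gene bZIP7 (GRMZM2G006578) had 115, 257, 75.8 and 197 TPM in aleurone, against 0.15, 0.50, 0.19 and 0.07 TPM in starchy endosperm (7.56, SE 0.51, adjusted p = 0.000178 by edgeR). The lower ones were DOF36 (-3.58, SE 0.56) and GATA27 (-2.90, SE 0.35). Of 21 heat shock genes 2 were higher and 2 lower (median 0.74), shares and a median near those of all tested genes (0.66): Hsf01 was at 3.25 (SE 0.35) and HSP90-2 at 1.45 (SE 0.31; adjusted p by edgeR 0.0231, but 0.0750 without aleurone 18 DAP biorep 2 and 0.0643, 0.0640 and 0.0662 without starchy endosperm 18 DAP biorep 1, 18 DAP biorep 2 or 22 DAP biorep 1), hsp18c at -4.26 (SE 0.38) and hsp70-4 at -1.78 (SE 0.14). Of 9 genes of sucrose cleavage and sugar transport, 5 were higher, 2 of them without any 1 library, and sh1 was lower (median 3.66). The fructokinase frk2 had 141, 333, 132 and 399 TPM in aleurone, against 1.19, 5.77, 1.28 and 12.4 TPM in starchy endosperm. None of 11 anthocyanin genes had enough counts to be tested, and they summed to 3.83 to 96.5 TPM in aleurone and 0 to 6.09 TPM in starchy endosperm.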
